A study of Mus musculus with 4 samples.

Results

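Heat shock chaperones are proteins that bind unfolded or partly folded proteins, and the mRNAs of 10 of them were followed in CD4+ T cells isolated from mouse lung tumors. The members were chosen by name, with earlier results of these data known, out of 25239 genes counted. They were *Hspa1a*, *Hspa1b*, *Hsph1*, *Dnajb1*, *Hspb1* and *Hsp90aa1* (6 stress-inducible genes) and *Hspa8* and *Hsp90ab1* (2 constitutive genes). *Hspd1* and *Hspe1* were the 2 genes for the mitochondrial chaperonin. All 10 passed the filter on low counts. RNA-Seq was carried out on 2 biological replicates of each genotype, WT and CD4/ALK4-KO. Whether each came from 1 animal or from a pool was not given in the sources used here.

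All mice were of the C57BL/6 background, and the study used males aged 8 to 10 weeks. Every animal received Lewis Lung Carcinoma cells expressing ovalbumin (LLC-OVA) by the intravenous route, and per the labels the lung tumors were taken 18 to 22 days later, while the study's methods give a somewhat earlier range for the CD4/ALK4-KO model. The WT group carried no listed transgene. The CD4/ALK4-KO group was CD4CreERT2+/-/Acvr1bfl/fl, in which tamoxifen, given daily 5 times, turns on a Cre recombinase driven by the mouse *Cd4* promoter and removes floxed *Acvr1b*, the gene for the activin-A type I receptor ALK4. Whether WT mice also received tamoxifen was not given in the sources used here. The comparison asks which transcripts differ in tumor-infiltrating CD4+ T cells when activin-A signaling through ALK4 is disrupted.

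The libraries held 11823908 to 13943237 counts. *Acvr1b* was at 31.1 and 25.3 CPM (counts per 1000000, with the TMM library sizes of edgeR) in the WT libraries and at 27.1 and 36.0 CPM in the libraries labelled CD4/ALK4-KO. It did not pass the test (log2 fold change 0.16, SE 0.24, adjusted p = 0.66 with edgeR's quasi-likelihood test), so the targeted gene did not separate the labels, and which of its exons are floxed was not given in the sources used here. Directions below are those of the labels. *Cd4* was at 55.4 and 48.0 CPM in WT and at 307 and 327 CPM in CD4/ALK4-KO. The 16 T cell markers summed to 576 and 529 CPM in WT against 2910 and 2870 CPM in CD4/ALK4-KO. All 16 passed the test as higher, against 17.4% of all genes tested. Markers of fibroblasts were present in the same libraries at a sum of 7484 and 8063 CPM in WT and of 5629 and 4775 CPM in CD4/ALK4-KO, so the labelled CD4+ T cell identity was not the only one seen. In such bulk samples fewer cells of a type and less RNA per cell cannot be told apart.

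When cells meet heat, oxidants or an excess of unfolded proteins, heat shock factor 1 (HSF1) is released from chaperones, forms trimers and binds heat shock elements in the promoters of the inducible genes. HSP70 proteins, encoded by *Hspa1a* and *Hspa1b* when induced and by *Hspa8* at all times, hold short hydrophobic stretches of a client in an ATP-driven cycle that J proteins such as DNAJB1 start and that HSP110 (*Hsph1*) helps to reset. HSP90, encoded by inducible *Hsp90aa1* and constitutive *Hsp90ab1*, matures kinases and receptors, many of them of use to T cells. HSP27 (*Hspb1*) is a small heat shock protein that holds clients without ATP. HSP60 (*Hspd1*) and its lid HSP10 (*Hspe1*) form the folding chamber of the mitochondrial matrix. Activated T cells synthesise protein at a high rate and are known to raise several of these genes.

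A heat shock element is built of alternating GAA and TTC units separated by any 2 bases. The promoters of the members, taken from RefSeq (GRCm38.p6) as the 250 bases before and the 50 bases after a start site, were searched on both strands for 3 such units in a row, and for the shorter GAANNTTC or TTCNNGAA of 2 units, which every 3-unit match also contains. An entry was at hand for 7 members. *Hspa8*, *Hsp90aa1* and *Hsp90ab1* had none. Runs of 3 units were found for 3 members, *Hspd1*, *Hspe1* and *Hsph1*, and occur for 0.662% of the 27025 genes with a promoter entry (0.603% of all 32851 promoters of this length, as a gene can have several). At least 2 units were found for 6 members, all of the 7 but *Dnajb1*, and occur for 17.0% of these genes (15.1% of all promoters). These matches are descriptions of letters, not measured binding. Only exact units within these stretches were sought, so a promoter without a match is not shown to lack an element.

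The longest match is shown because a mitochondrial gene pair shares it. *Hspd1* and *Hspe1* lie head to head on chromosome 1, and a single run of 4 units, 18 bases long, stands between a start site of each (chr1:55088053-55088082), where its first base is at -144 from the *Hspd1* start on the minus strand and at -89 from the *Hspe1* start on the plus strand. GENCODE M21 also has it within the first exon of a longer *Hspd1* transcript. The same 30 bases are given along each gene, with the units and the bases between them in capitals.
Hspd1: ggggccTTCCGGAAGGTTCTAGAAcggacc
Hspe1: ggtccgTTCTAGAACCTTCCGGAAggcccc

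The 3-unit match of *Hsph1* lies at 16 bases after a start site, within the transcribed part (chr5:149636280-149636306, minus strand), and is shown as the sole 3-unit match among the stress-inducible members. The capitals mark the match.
Hsph1: tgcagaTTCTGGAAAGTTCtcctcagt

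*Hspa1a* and *Hspa1b* are neighbouring copies on chromosome 17, and their promoters are shown since the reads of both genes are hard to tell apart. Over the 300 bases their promoters were 98.7% identical, with 4 differing bases. The stretches from -140 to -1 (chr17:34972157-34972296 and chr17:34959239-34959378, both minus strand) differ at 1 base, and the 2-unit match at -104 is in capitals.
Hspa1a: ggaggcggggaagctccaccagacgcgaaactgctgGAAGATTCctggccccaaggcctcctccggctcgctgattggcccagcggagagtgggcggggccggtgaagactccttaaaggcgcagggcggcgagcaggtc
Hspa1b: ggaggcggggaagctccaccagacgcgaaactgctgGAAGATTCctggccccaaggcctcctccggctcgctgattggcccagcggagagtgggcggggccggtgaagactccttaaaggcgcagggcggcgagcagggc

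*Hspb1* held a pair of separate 2-unit matches, at -117 (chr5:135887794-135887817, plus strand) and at -97 (chr5:135887814-135887837, plus strand), again in capitals.
Hspb1 at -117: caacaagaGAAGTTTCcagatggg
Hspb1 at -97: tgggggcaGAACCTTCctggcccc

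Most of the chaperone mRNAs were lower in CD4/ALK4-KO than in WT. The 10 members took 0.616% and 0.615% of all counts in the WT libraries and 0.421% and 0.450% in the CD4/ALK4-KO libraries. Of the 10, 7 passed the test as lower (adjusted p under 0.05, Benjamini-Hochberg over all 13919 genes tested) and 0 as higher, while 15.4% of all genes tested passed as lower and 17.4% as higher. Both CD4/ALK4-KO libraries were below both WT libraries for 9 members, all but *Dnajb1*, against 34.0% of all genes tested. The median log2 fold change was -0.75 over the 10 members and -0.01 over all genes tested. The members were chosen with earlier results of these data known, so these counts, shares and medians are descriptions.

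The count of 7 depended on the libraries. Without WT replicate 1 it was 1 (*Hsp90aa1*), with 754 of 14398 genes passing as lower, and without WT replicate 2 it was 3, with 1047 of 14395. It changed less when either CD4/ALK4-KO library was removed, and in those fits more of all genes passed as lower than with no library left out. With 1 library left in a group, that library is assumed to vary like the pair of the other group. The directions of 9 members were negative in each of these fits, and that of *Dnajb1* was not.

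**Figure D1:**
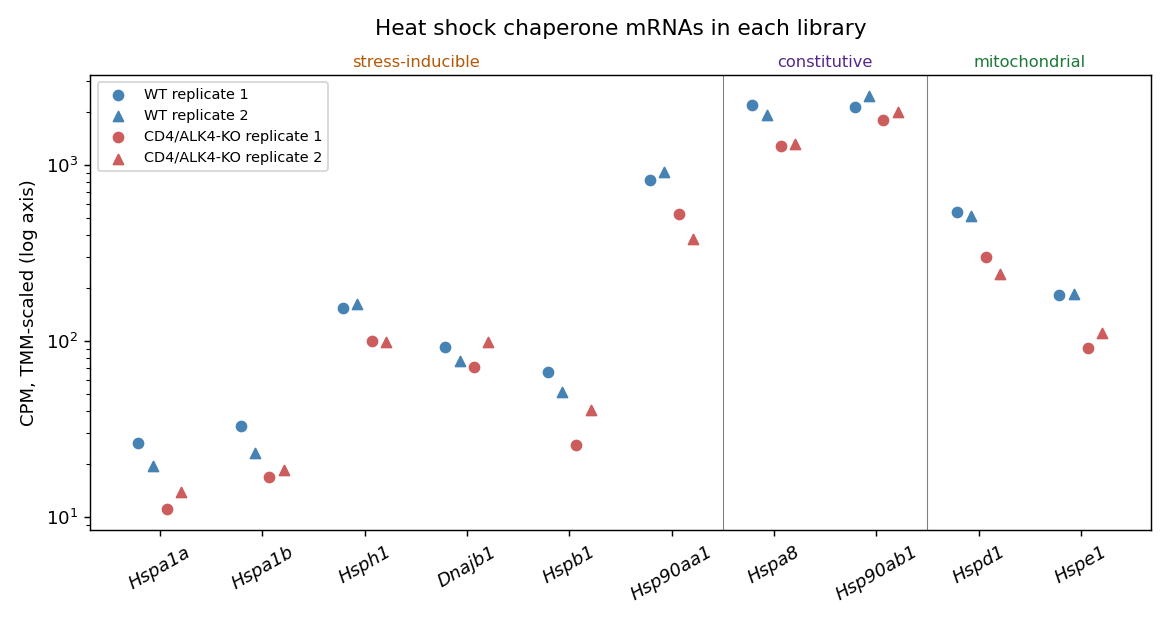
Level of each of the 10 members in each library, in CPM on a log axis, with circles for replicate 1 and triangles for replicate 2, WT in blue and CD4/ALK4-KO in red. Both red points lie below both blue points for 9 members, while those of *Dnajb1*, from 71.8 to 98.9 CPM, interleave.

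The inducible HSP70 genes had the fewest counts among the members. *Hspa1a* (chr17:34969190-34972156, minus strand, 1 exon) had 362 and 266 counts in WT and 132 and 172 in CD4/ALK4-KO, or 26.4 and 19.7 against 11.1 and 13.9 CPM. The groups did not overlap, and the gene passed as lower, with a log2 fold change of -0.88 (SE 0.28, adjusted p = 0.018). *Hspa1b* (chr17:34956436-34959238, minus strand, 1 exon), which starts 12918 bases away, had 455 and 313 counts in WT and 202 and 230 in CD4/ALK4-KO, or 33.2 and 23.1 against 17.0 and 18.6 CPM. Its groups did not overlap either, but its log2 fold change of -0.66 (SE 0.26, adjusted p = 0.058) did not pass. In both genes WT replicate 1 was the highest library.

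How many reads of these copies were counted, and for which copy, is uncertain. Of the stretches of 75 bases, the length of a read, in the *Hspa1a* transcripts, 61.7% also occur in transcripts of another gene, and of those of *Hspa1b* 55.8%. Summed, both genes had 817 and 579 counts in WT and 334 and 402 in CD4/ALK4-KO. The sum passed as lower, with a log2 fold change of -0.76 (SE 0.23, adjusted p = 0.015). Reads with several alignments, which the read counter HTSeq by default leaves out, would be missing from the sum as well. This sum was added after the data had been seen.

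The partners of inducible HSP70 did not move alike. *Hsph1*, the HSP110 nucleotide exchange factor (chr5:149614287-149636376, minus strand), was at 154 and 163 CPM in WT and at 100.3 and 98.6 CPM in CD4/ALK4-KO. The replicates of each group were close and the groups well apart, and it passed as lower with a log2 fold change of -0.67 (SE 0.21, adjusted p = 0.016). *Dnajb1*, the HSP40 J protein that delivers clients to HSP70 (chr8:83608193-83612653, plus strand), was at 93.3 and 77.6 CPM in WT and at 71.8 and 98.9 CPM in CD4/ALK4-KO. The CD4/ALK4-KO libraries held both its lowest and its highest value, and its log2 fold change was -0.0012 (SE 0.22, adjusted p = 0.998). None of the 75-base stretches of these 2 genes occurs in another gene's transcripts.

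*Hspb1*, the small heat shock protein HSP27 (chr5:135887919-135889563, plus strand), was at 67.1 and 51.5 CPM in WT and at 25.7 and 40.7 CPM in CD4/ALK4-KO. The groups did not overlap although both were spread, and it passed as lower with a log2 fold change of -0.84 (SE 0.24, adjusted p = 0.011). The value moved with the libraries used. It was -0.64 without WT replicate 1 (adjusted p = 0.25) and -0.51 without CD4/ALK4-KO replicate 1 (adjusted p = 0.066), each of which ended the call, and -1.21 without CD4/ALK4-KO replicate 2. Of its 75-base stretches 46.4% occur in transcripts of other genes.

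Inducible HSP90 passed the test as lower, and constitutive HSP90 did not. *Hsp90aa1* (chr12:110690605-110702728, minus strand) was at 822 and 908 CPM in WT and at 526 and 378 CPM in CD4/ALK4-KO. It passed as lower with a log2 fold change of -0.94 (SE 0.22, adjusted p = 0.0024), so that WT was 1.91-fold higher. *Hsp90ab1* (chr17:45567775-45573271, minus strand), the member with the most counts, was at 2128 and 2478 CPM in WT and at 1805 and 1996 CPM in CD4/ALK4-KO. Its groups did not overlap, and its log2 fold change of -0.28 (SE 0.19, adjusted p = 0.29) did not pass. Within each library there were 386 and 366 counts of *Hsp90aa1* per 1000 of *Hsp90ab1* in WT and 291 and 190 in CD4/ALK4-KO, without overlap. Of the 75-base stretches of *Hsp90aa1* 42.8% occur elsewhere, against 0.537% of those of *Hsp90ab1*.

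*Hspa8*, the constitutive HSP70 known as HSC70 (chr9:40800984-40810087, plus strand), was at 2191 and 1919 CPM in WT and at 1286 and 1311 CPM in CD4/ALK4-KO. The CD4/ALK4-KO libraries lay close together and well below WT, and the gene passed as lower with a log2 fold change of -0.66 (SE 0.20, adjusted p = 0.013). Its fold change thus equalled that of *Hspa1b* to 2 decimals, with a smaller SE. In its transcripts 33.1% of the 75-base stretches occur in other genes, 14 in number, and small nucleolar RNA genes such as *Snord14c* and *Snord14d* lie within its transcribed region on the same strand.

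The mitochondrial chaperonin genes fell together. *Hspd1* (chr1:55077835-55088243, minus strand) was at 538 and 515 CPM in WT and at 301 and 240 CPM in CD4/ALK4-KO. Its log2 fold change of -0.96 (SE 0.22, adjusted p = 0.0018) was the lowest of the 10 members, with WT 1.95-fold higher. *Hspe1* (chr1:55088132-55091307, plus strand) was at 182 and 186 CPM in WT and at 91.1 and 110.6 CPM in CD4/ALK4-KO, with a log2 fold change of -0.87 (SE 0.21, adjusted p = 0.0033). Both gene models overlap by 112 bases on opposite strands. The library kit does not mark strand, so reads in that overlap cannot be told apart. Of the 75-base stretches of *Hspd1* 31.0% occur in transcripts of other genes, and of those of *Hspe1* 11.9%. There were 339 and 361 counts of *Hspe1* per 1000 of *Hspd1* in WT and 302 and 462 in CD4/ALK4-KO, with overlap between the groups.

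**Figure D2:**
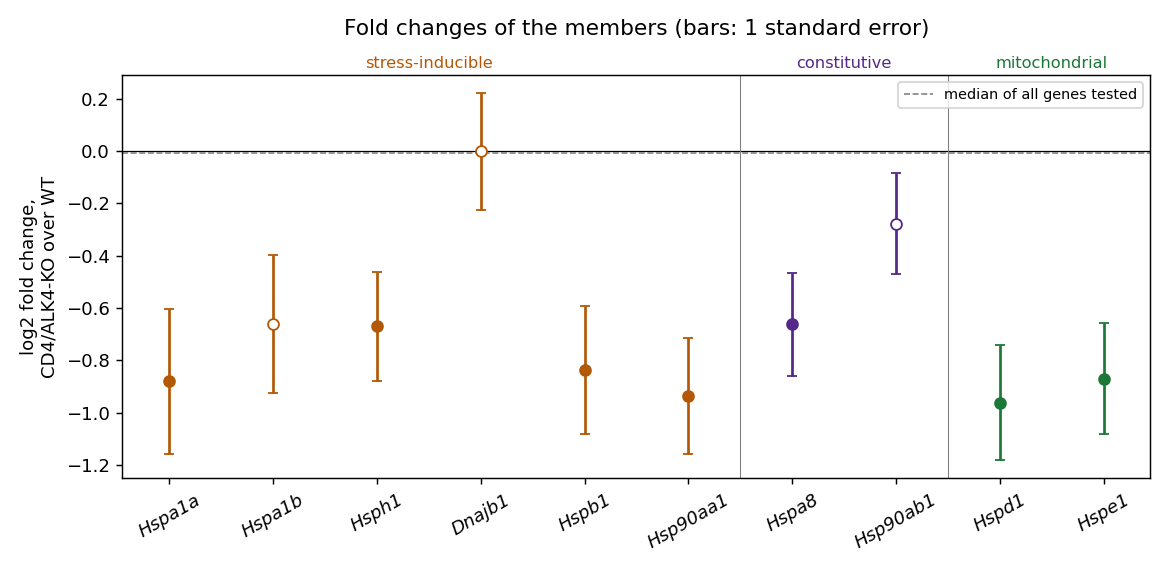
Log2 fold change of each member, CD4/ALK4-KO over WT, with bars of 1 standard error, filled points for genes that passed the test and open points for those that did not, coloured by class. *Dnajb1* sits at -0.0012 beside the dashed median of all genes tested, and the 7 filled points lie between -0.96 and -0.66.

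By class, the median log2 fold change was -0.75 for the 6 stress-inducible genes, of which 4 passed as lower. It was -0.47 for the 2 constitutive genes, of which 1 passed, and -0.92 for the 2 mitochondrial genes, which both passed. Over all genes tested the median was -0.01, and 15.4% passed as lower. The classes overlapped, since the inducible genes ranged from -0.94 to -0.0012 and the constitutive ones from -0.66 to -0.28, and no class was tested against another.

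Ratios within a library need no scaling between libraries. With 2 libraries against 2, no permutation test of a ratio can pass the threshold, so they are given as values. The 6 inducible genes had 277 and 283 counts per 1000 constitutive counts in WT and 243 and 196 in CD4/ALK4-KO, a log2 difference of -0.36. *Hsp90aa1* gives most of that sum, and without it the difference was -0.069. Against *Hspa8* alone it was -0.14 for the sum, and the median of the 6 members' own changes against *Hspa8* was -0.11, all 3 added after the data had been seen. The median of the 6 ratios to *Hspa8* within each library, which follows the members of middle abundance, gave 0.22. No difference between inducible and constitutive counts thus held in size or sign over these forms.

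Ratios to *Hspa8* were also taken for single members. *Dnajb1* had 42.6 and 40.4 counts per 1000 of *Hspa8* in WT and 55.9 and 75.4 in CD4/ALK4-KO, so both CD4/ALK4-KO libraries were above both WT libraries. For *Hspa1a* and *Hspa1b* together the ratio was 27.2 and 22.3 in WT and 21.8 and 24.8 in CD4/ALK4-KO, and for *Hsph1* 70.1 and 84.8 against 78.0 and 75.2. Both of these overlapped between groups, as did *Hspb1* at 30.6 and 26.8 against 20.0 and 31.0 and *Hsp90aa1* at 375 and 473 against 409 and 289. Mitochondrial counts per 1000 constitutive counts were 167 and 159 in WT and 127 and 106 in CD4/ALK4-KO, without overlap. Counts of *Dnajb1* per 1000 of *Hspa1a* and *Hspa1b* were 1564 and 1813 in WT and 2560 and 3037 in CD4/ALK4-KO, also without overlap.

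**Figure D3:**
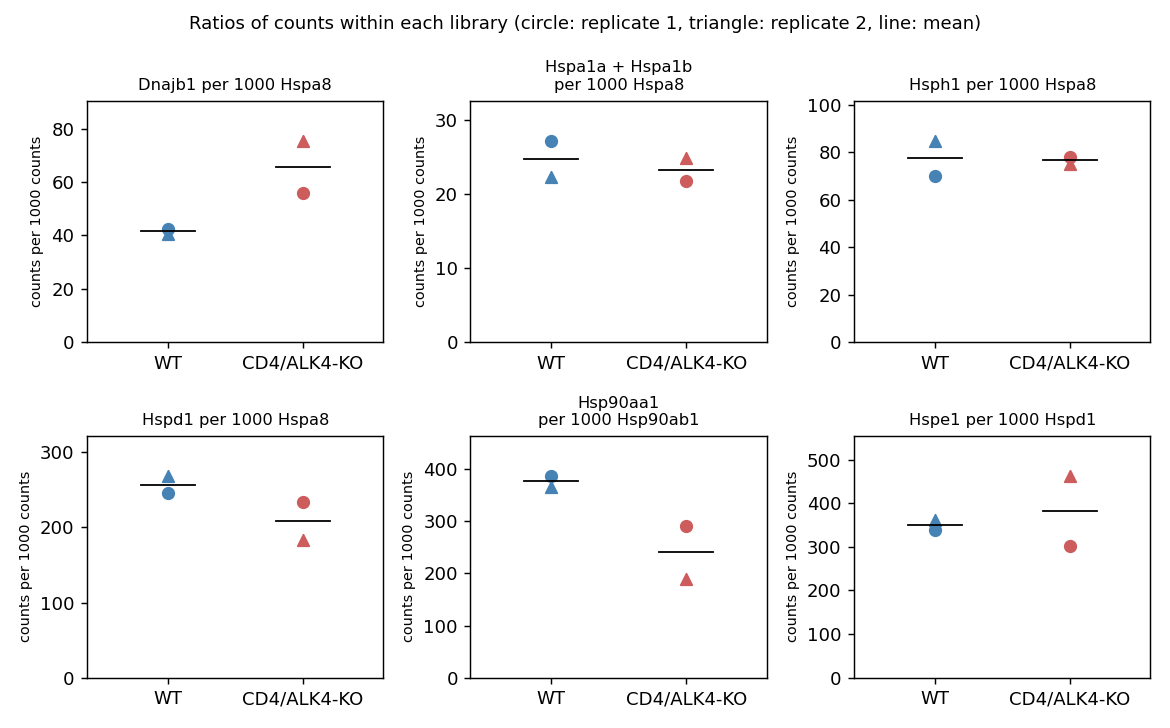
Counts of 1 chaperone per 1000 counts of another in each library, with WT in blue, CD4/ALK4-KO in red, circles for replicate 1, triangles for replicate 2 and lines for group means. *Dnajb1* per *Hspa8* is higher in both CD4/ALK4-KO libraries (55.9 and 75.4 against 40.4 and 42.6), *Hsp90aa1* per *Hsp90ab1* and *Hspd1* per *Hspa8* are lower in both, and the other panels overlap.

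Per length of merged exons, levels in the WT libraries spanned a wide range. *Hsp90ab1* led with 768 ± 82.5 CPM per kb (SD, n = 2), followed by *Hspa8* at 478 ± 44.6, *Hsp90aa1* at 220 ± 15.4, *Hspd1* at 199 ± 6.23 and *Hspe1* at 125 ± 1.71 CPM per kb. *Hspb1* had 57.5 ± 10.8, *Dnajb1* 26.7 ± 3.45, *Hsph1* 21.8 ± 0.89, *Hspa1b* 10.1 ± 2.54 and *Hspa1a* 7.77 ± 1.61 CPM per kb. On this scale the constitutive genes were at the top and the inducible HSP70 genes at the bottom. Among these neighbours only *Hspa1b* and *Hspa1a* had overlapping libraries in WT. In CD4/ALK4-KO the order was the same, with 634 ± 45.0 CPM per kb for *Hsp90ab1*, 302 ± 4.21 for *Hspa8* and 4.22 ± 0.68 for *Hspa1a*. There *Hsp90aa1* (115 ± 26.5) and *Hspd1* (102 ± 16.5) overlapped, as did *Hspb1* (32.2 ± 10.3) and *Dnajb1* (26.6 ± 5.97). These levels were not corrected for 75-base stretches shared with other genes. Such stretches made up 61.7% for *Hspa1a* and 55.8% for *Hspa1b*, against 0% for *Hsph1* and *Dnajb1*. The place of the inducible HSP70 genes in the order is therefore uncertain.

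The heat shock factors themselves had low counts. *Hsf1*, the master factor, was at 33.3 and 23.7 CPM in WT and at 17.9 and 33.5 CPM in CD4/ALK4-KO, with a log2 fold change of -0.15 (SE 0.28, adjusted p = 0.73). *Hsf2* was at 31.8 and 30.9 against 35.6 and 20.4 CPM (log2 fold change -0.16, SE 0.26, adjusted p = 0.68). In both genes the groups overlapped. *Hsbp1*, whose product binds HSF1 trimers, passed as lower at 181 and 194 against 111 and 115 CPM (log2 fold change -0.73, adjusted p = 0.010), as did *Hsf4* at 62 and 47 against 14 and 25 counts (log2 fold change -1.31, adjusted p = 0.048). The level of an mRNA does not show the activity of HSF1, which is set on the protein.

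Of 15 other genes of the heat shock response, 7 passed as lower and 0 as higher, against 15.4% and 17.4% of all genes tested. Their median log2 fold change was -0.49. *Bag3*, an HSP70 cochaperone (-1.07), *Serpinh1*, the collagen chaperone HSP47 (-1.03), *Fkbp4* (-0.98) and *Ahsa1* (-0.64), both cochaperones of HSP90, *Cacybp* (-0.86), *Hspa4l*, an HSP110 relative (-0.84), and the small heat shock protein gene *Hspb8* (-0.71) passed. *Hspa4* (0.05), *Chordc1* (-0.06), *Dnaja1* (-0.19) and *Ubb* (-0.23), a polyubiquitin gene, did not. Of these 15 genes 13 had a promoter entry, among which *Chordc1*, which did not pass, alone held 3 units. At least 2 units were held by 6, and genes with and without such a 2-unit match were found on both sides of the test.

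Over all 102 other chaperone genes listed, 98 were tested, with a median log2 fold change of -0.39. Of the 98, 36 passed as lower and 3 as higher, against 15.4% and 17.4% of all genes tested. The TRiC chaperonin, which folds actin and tubulin, had both CD4/ALK4-KO libraries below both WT libraries for all 8 subunits (all genes tested: 34.0%). Of the 8, 6 passed as lower (median -0.77). *Cct5* was at 932 and 995 against 502 and 474 CPM (log2 fold change -0.98) and *Tcp1* at 899.7 and 902 against 558 and 405 CPM (-0.90), while *Cct2* with -0.53 did not pass. Prefoldin, which hands clients to TRiC, had 4 of 6 subunits lower (*Pfdn1*, *Pfdn2*, *Pfdn4* and *Pfdn6*). Its 2 subunits with the most counts, *Pfdn5* (-0.27) and *Vbp1* (-0.23), did not pass.

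Other compartments had members that fell as well. Of 15 endoplasmic reticulum chaperones 7 passed as lower and 0 as higher (median -0.36), against 15.4% and 17.4% of all genes tested. *Hsp90b1*, the HSP90 of that compartment, was at 2361 and 2654 against 1419 and 1240 CPM (log2 fold change -0.92), and its HSP70, *Hspa5*, had -0.54, while the disulfide isomerase gene *P4hb* with -0.28 did not pass. Of 13 other mitochondrial chaperone and protease genes 4 passed as lower (*Hspa9*, *Grpel1*, *Lonp1* and *Clpp*), against 15.4% of all genes tested. Their median was -0.34. *Hspa9*, the mitochondrial HSP70, was at 798 and 702 against 406 and 364 CPM (log2 fold change -0.96), while *Trap1*, the mitochondrial HSP90, with -0.34 and the protease gene *Yme1l1* with 0.07 did not pass.

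Of 8 other HSP70 family genes, *Hspa5* and *Hspa9* included, 4 passed as lower (also *Hspa13* and *Hspa12b*) and 1 as higher (*Hspa12a*). Among all genes tested the shares were 15.4% and 17.4%. Among 14 cochaperones of HSP70 and HSP90, 3 passed as lower (*St13*, *Ptges3* and *Bag2*), not far from the 15.4% of all genes. As higher 0 passed, against 17.4%, while *Cdc37* (-0.22) and *Sugt1* (-0.25) did not pass. Other genes listed as small heat shock proteins were scarce, with 4 of 7 tested. Of the 4, 1 passed as lower, *Hspb11* (-0.79), which was listed by its symbol. Whether its product acts as a chaperone was not examined. *Hspb6* (0.27) and *Hspb2* (-0.74) did not pass. The genes named in counts of 5 or fewer were taken after their values had been seen.

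*Dnajb1* is a J protein, and 13 further J proteins were listed apart from those already counted in the lists above. Of the 13, 0 passed as lower, against 15.4% of all genes tested, and 2 as higher, against 17.4%, *Dnaja4* at 5.76 and 5.69 against 14.4 and 15.6 CPM (log2 fold change 1.39) and *Dnajc5* at 111 and 106 against 202 and 193 CPM (0.87), and the median was 0.05. *Dnaja2* (-0.13), *Dnajc7* (0.05) and *Dnajc8* (-0.09), which have the most counts among the 13, did not pass. The J proteins of the other lists did not pass either, with *Dnajb4* at -0.49, *Dnajb9* at -0.31, *Dnaja1* at -0.19, *Dnaja3* at -0.11, *Hscb* at -0.03, *Dnajb11* at 0.04 and *Dnajc3* at 0.19. Both CD4/ALK4-KO libraries were above both WT libraries for 5 of the 13, against 32.7% of all genes tested. The difference between J proteins and the other families was not tested.

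**Figure D4:**
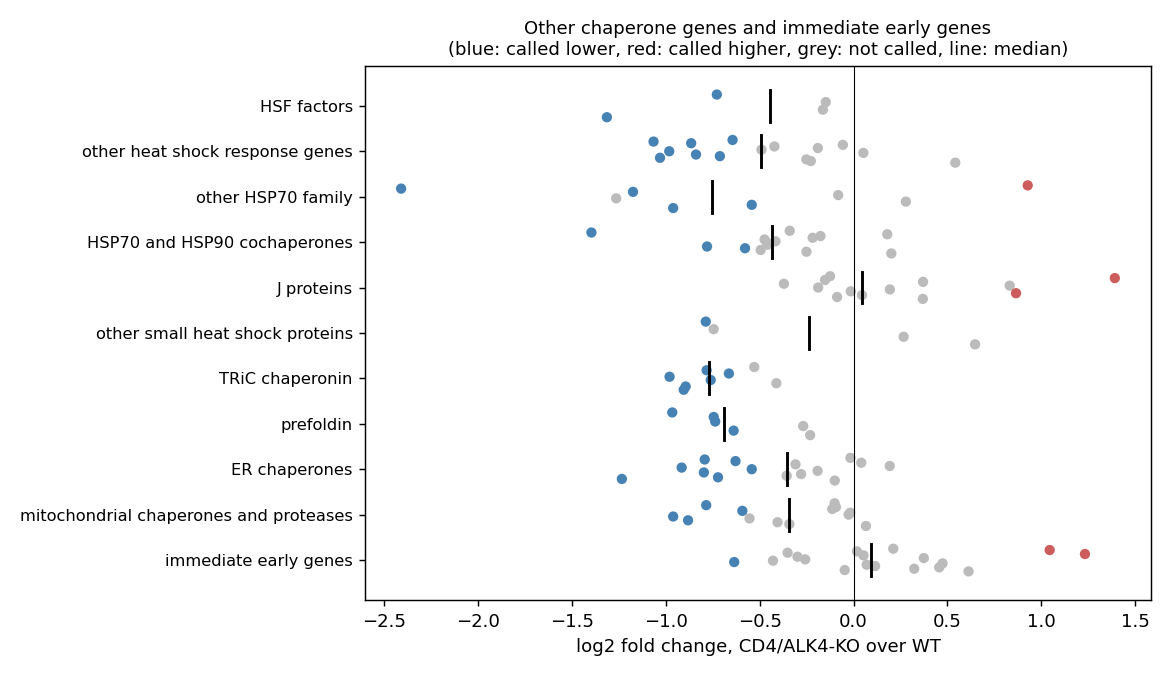
Log2 fold change, CD4/ALK4-KO over WT, of each tested gene in 10 lists of other chaperone genes and in 18 immediate early genes, with genes that passed as lower in blue, as higher in red and the others in grey, and a line at each median. TRiC lies wholly below 0, while the J proteins and immediate early genes have medians near 0 (0.05 and 0.09).

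Immediate early genes, which like heat shock genes can respond to the handling of tissue, are given beside the members. Of 18 such genes 1 passed as lower (*Jun*), against 15.4% of all genes tested, and 2 as higher (*Btg2* and *Egr2*), against 17.4%, with a median log2 fold change of 0.09. *Klf6* (0.11), *Fos* (0.05) and *Junb* (0.47) did not pass. The 18 summed to 4706 and 3951 CPM in WT and to 4151 and 5223 CPM in CD4/ALK4-KO, with overlap between the groups. The part of tissue handling in the chaperone values was not tested.

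The markers that passed as lower were mostly those of fibroblasts and epithelial cells. Among all genes tested 15.4% passed as lower and 17.4% as higher. Of 8 fibroblast markers 4 passed as lower and 0 as higher. *Col3a1* with -0.93 on the log2 scale passed, while *Sparc* (0.13) and *Pdgfra* (0.22) did not. Of 7 epithelial markers 4 passed as lower (*Krt18* with -1.12) and 2 as higher, *Epcam* (2.31) and *Cdh1* (1.77). *Pdgfra*, *Epcam* and *Cdh1* were named after their values had been seen. The 7 epithelial markers summed to 869 and 865 CPM in WT and to 565 and 420 CPM in CD4/ALK4-KO. The 10 macrophage and monocyte markers summed to 6712 and 7664 CPM in WT and to 6754 and 6547 CPM in CD4/ALK4-KO, with 1 higher and 0 lower. The 7 B cell markers all passed as higher, with sums of 69.1 and 53.7 against 191 and 403 CPM. The 7 neutrophil markers summed to 899 and 1384 against 1398 and 919 CPM, with 2 higher, and the 7 endothelial markers to 57.4 and 73.9 against 127 and 140 CPM, with 1 higher and 1 lower. No marker was at 0 in all libraries. The part of these cells in the chaperone values was not tested.

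**Figure D5:**
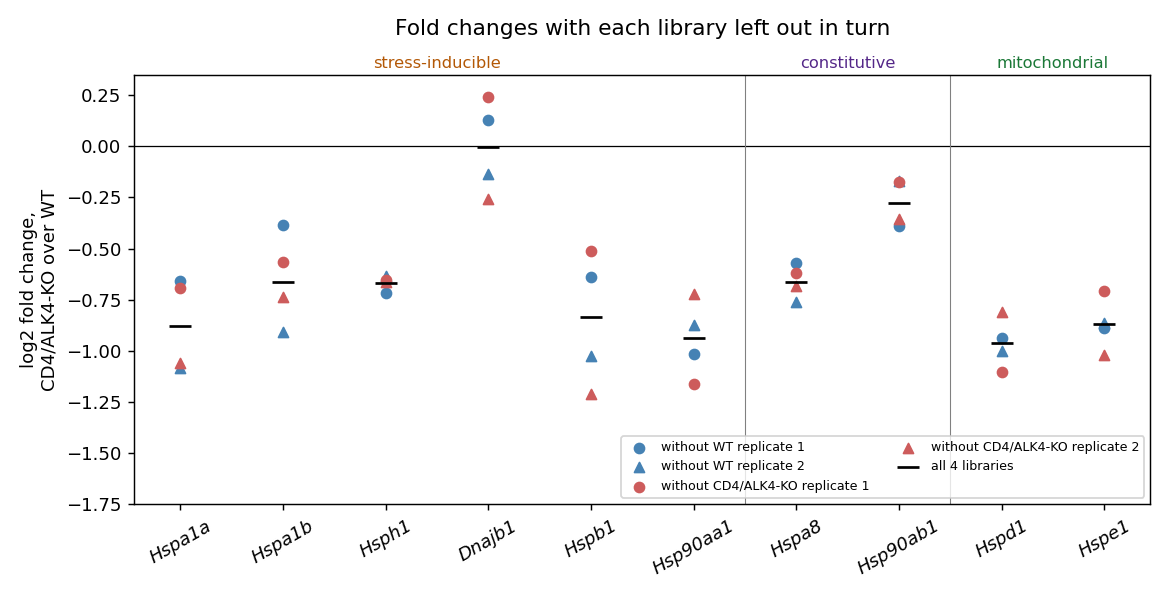
Log2 fold change of each member, CD4/ALK4-KO over WT, with each library left out in turn (coloured circles and triangles) and with all 4 libraries (black bars). *Dnajb1* lies on both sides of 0, from -0.26 to 0.24, *Hspb1* spreads from -1.21 to -0.51, and *Hsph1* stays between -0.72 and -0.64.

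The genes with the pattern most like 2 of the members were sought over the 4 libraries among 10450 non-member genes whose mean count was 100 or more, by the distance between centred log2 CPM. For *Hspd1* these were *Tipin* (distance 0.022), *Poglut2*, *Ranbp1*, *Knstrn* and *Cct8*, a TRiC subunit. For *Hspa1b*, with its highest level in WT replicate 1, they were *Gas6* (distance 0.049), *Pex14*, *Itpripl2*, *Espl1* and *Triobp*. *Tipin* was at 98.6 and 93.1 CPM in WT and at 55.5 and 44.0 CPM in CD4/ALK4-KO, and *Gas6* at 133 and 92.8 against 71.0 and 75.7 CPM. With 4 libraries many genes share a pattern, and no test was made.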

How the data were processed

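RNA-Seq of 4 libraries, single-end reads of 75 bp from an unstranded kit, was analysed. The authors checked reads with FastQC, used HISAT2 for alignment to mm10 and HTSeq (intersection non-empty mode) for counting, and deposited the unnormalized counts by gene symbol, 1 file a library. Versions, annotation and strand option were not given in the sources used here. HTSeq by default leaves out reads with several alignments, which lowers genes with near copies.

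From the counts, edgeR 4.0.16 in R 4.3.3 (filterByExpr, TMM, robust quasi-likelihood model of genotype alone) tested 13919 of 25239 genes with Benjamini-Hochberg adjustment over all of them. Standard errors are the absolute log2 fold change over the square root of F. CPM used TMM library sizes. Replicates differed by more than sampling noise (chi-square per degree of freedom 16.0 for WT and 28.7 for CD4/ALK4-KO). The code was tested on simulated data. p-values set a difference against the spread between these libraries, with each gene's spread moderated by that of the other genes. Whether this is a spread between single animals was not given in the sources used here.

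Gene models and transcripts were those of GENCODE M21 (GRCm38). Alternatives were DESeq2 1.42.0, other scalings and filters, a replicate block and each library left out. The members, classes and gene lists were chosen with earlier results of these data known. Named were all members, the HSF and heat shock response genes a result turned on, and of other lists the 3 with the highest mean count. For likeness, *Hspa1b* and *Hspd1* stood for the members. The value of 1 gene of these lists is not reported here.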

Additional observations from a re-analysis of the deposited data

How the results depend on the processing

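Of the 10 members, 7 were lower and 0 higher with DESeq2's size factors, its Wald test and edgeR's likelihood ratio test. Of all genes 2089, 1956 and 2268 of 13919 were lower in these fits. With at least 10 counts in every library 7 members were again lower and 0 higher, with 2058 of 12844 genes lower. Without a filter or with upper quartile scaling 8 members were lower, where *Hspa1b* passed (adjusted p = 0.048 and 0.046). Of all genes 2232 of 18947 and 2428 of 13919 were lower there. With each library left out in turn, 1 to 8 members and 9 to 39 of the other chaperone genes were lower, and 1 to 3 of the latter higher. The number of all genes passing as lower also moved widely between these fits, so this swing was not particular to the chaperone genes. The class medians with a library left out ran from -0.89 to -0.61 (stress-inducible), from -0.52 to -0.40 (constitutive) and from -0.93 to -0.91 (mitochondrial). Upper quartile scaling gave -0.82 for the stress-inducible, -0.54 for the constitutive and -0.98 for the mitochondrial class. The labels do not say whether same-numbered libraries are paired. Deviations of same-numbered libraries had a correlation of -0.20 over the genes tested. With the replicate block 4 members and 19 other chaperone genes were lower, with 1444 of 13919 genes lower. In that fit *Hspa1a* (adjusted p = 0.063), *Hsph1* (0.091) and *Hspa8* (0.086) did not pass. A crossed replicate block, which joins WT replicate 1 to CD4/ALK4-KO replicate 2, was added after seeing the data. With it 8 members and 45 other chaperone genes were lower, with 3037 of 13919 genes lower. Its pairing follows the sign of that correlation, so its counts are not independent of that choice.

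Scaling to *Cd3d*, *Cd3e*, *Cd3g* and *Cd247*, which are higher in CD4/ALK4-KO, shifted the median of all genes by -2.18, with 12803 genes lower and 48 higher. On that scale all 10 members were lower, 98 other chaperone genes were lower and 0 higher, and the class medians were -2.93, -2.65 and -3.10 (inducible, constitutive, mitochondrial), so *Dnajb1* at -2.17 lay near that shift. The direction of *Dnajb1* was not stable: 0.010 with DESeq2's size factors and with its Wald test, 0.0014 with at least 10 counts in every library, and -0.26 to 0.24 with a library left out. The ratio of inducible to constitutive counts turned to 0.22 with the median over members against *Hspa8*, which changes both the summary and the denominator. In forms added after seeing the data it was -0.11 (median of the members' own changes against *Hspa8*), -0.14 (sum against *Hspa8* alone) and -0.069 (sum without *Hsp90aa1*). Its value with a library left out ran from -0.51 to -0.20. Beyond the fewer libraries, the causes of these changes were not tested. Members with at least 2 units in a promoter numbered 6, against 3 with 3 units. Depth limits *Hspa1a* and *Hspa1b* most, whose lowest libraries held 132 and 202 counts.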
